A study of Mus musculus with 12 samples.

Results

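Scavenger receptors are the 8 genes Msr1, Marco, Colec12, Cd36, Scarb1, Scarb2, Cd163 and Stab1, taken by symbol from 43453 genes in a count table of bone marrow-derived macrophages (BMDMs). All 8 were found and all 8 passed the filter on low counts in every comparison. The table counts reads per transcript, so 29 of its 115140 rows belonged to these genes, and the row with the highest total was used for each gene. The BMDMs came from C57BL/6 mice carrying floxed tlr4, either without Cre (tlr4f/f) or with Cre from the Lyz2 locus (tlr4f/f-lysM-cre), which removes tlr4 in macrophages and in other myeloid cells such as neutrophils. Marrow was cultured with 50 ng/ml of M-CSF for 7 days, and LPS, where given, was added at 1 µg/mL for 6 h. Of the 4 groups, those without LPS were headed LPS- tlr4f/f or LPS- tlr4f/f-lysM-cre, those given it were headed LPS+ tlr4f/f or LPS+ tlr4f/f-lysM-cre, and each had 3 libraries of the 12. No source used here says that the 3 libraries of a group came from separate mice, so the p-values measure only the spread between these samples, which may be technical.

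Scavenger receptors bind modified lipoproteins, microbial surfaces, apoptotic cells and other polyanionic ligands, and macrophages express many of them. TLR4 is the receptor through which LPS activates NF-kB and interferon signalling. The receptors differ in structure as well as in ligand: the class A receptors are collagen-like trimers, the CD36 family spans the membrane at both ends, CD163 is built of cysteine-rich SRCR domains and stabilin-1 is a large multidomain receptor.

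Each library held between 33577440 and 56445989 gene counts, with a median of 45331247.5. Levels are given as CPM, counts scaled to library size with TMM factors, and the genes used as a check went against the column headings. Tlr4, the targeted gene, was at 77.0, 146 and 121 CPM in the group headed LPS- tlr4f/f and at 117, 94.7 and 116 CPM in that headed LPS- tlr4f/f-lysM-cre, whereas it lay between 24.4 and 31.2 CPM in all 6 libraries headed LPS+. These are counts over a whole transcript and not over the floxed part alone. Il1b, an LPS-induced cytokine, lay between 1633 and 8224 CPM in the group headed LPS- tlr4f/f-lysM-cre and between 2.69 and 3.61 CPM in that headed LPS+ tlr4f/f, with 0.0750 to 6.95 CPM in LPS- tlr4f/f and 2488 to 2671 CPM in LPS+ tlr4f/f-lysM-cre. Lyz2, the gene into which Cre is inserted, lay between 5953 and 23331 CPM in the 6 libraries headed LPS- and between 10.4 and 75.3 CPM in the 6 headed LPS+. Groups are therefore named by their headings, and each comparison is also given as it reads with the heading LPS- tlr4f/f-lysM-cre exchanged for LPS+ tlr4f/f. After this exchange, Tlr4 and Lyz2 are low in all 6 tlr4f/f-lysM-cre libraries and Il1b is high in all 6 libraries given LPS. Both readings rest on the same fits, with only the names changed. Macrophage markers were present in all groups, 8 of 8 in number and none at 0 throughout, but not at 1 level. Their summed level was 13804 to 29584 CPM in LPS- tlr4f/f, 17878 to 21280 CPM in LPS- tlr4f/f-lysM-cre, 4453 to 4715 CPM in LPS+ tlr4f/f and 7767 to 7992 CPM in LPS+ tlr4f/f-lysM-cre. Lyz2 is 1 of these 8 markers, so its own range, 5953 to 23331 CPM in libraries headed LPS- and 10.4 to 75.3 CPM in those headed LPS+, enters these sums. The sums are therefore no measure of the share of macrophages. Adgre1, which encodes the macrophage marker F4/80, lay between 628 and 633 CPM in LPS+ tlr4f/f and between 2035 and 2243 CPM in LPS+ tlr4f/f-lysM-cre. Single markers did not move together between these groups. Csf1r was at 1258 to 1377 CPM in LPS+ tlr4f/f and higher, at 1622 to 1781 CPM, in LPS+ tlr4f/f-lysM-cre. Cd68 was at 740 to 825 CPM in the former and lower, at 579 to 644 CPM, in the latter. Msr1 and Marco also differed between these groups, and the part of the marker differences in the receptor values was not tested. Neutrophil markers summed to 14.1, 27.5 and 190 CPM, in ascending order, in LPS- tlr4f/f-lysM-cre and to at most 12.7 CPM in the other groups. S100a8 alone was at 125 CPM in replicate 3 of LPS- tlr4f/f-lysM-cre. The 7 markers did not move together. Ly6g had at most 1 count in any library, and Cxcr2 had 16 to 29 counts in LPS+ tlr4f/f against 0 to 1 in LPS- tlr4f/f-lysM-cre. Over all genes kept by the count filter, the libraries of LPS- tlr4f/f were about equally alike. Mean Pearson r of log2 CPM with the rest of the group was 0.946, 0.958 and 0.940 for replicates 1, 2 and 3. In the receptor levels, replicate 3 of the group headed LPS- tlr4f/f stood apart from its other 2 libraries. It had the lowest level of all 12 libraries for Msr1, Marco, Cd36 and Stab1 and the highest for Cd163, Scarb1 and Scarb2. Macrophage markers went both ways in it, with 675 CPM of Adgre1 against 2335 and 1436 CPM, but 2910 CPM of Csf1r against 1733 and 1580 CPM. Lyz2 was at 23331 CPM there, against 6587 and 9421 CPM. Results that rest on this library are therefore given with and without it. The biological coefficient of variation was 37.2% in the group headed LPS- tlr4f/f and 34.8% in LPS- tlr4f/f-lysM-cre, against 8.54% in LPS+ tlr4f/f and 8.75% in LPS+ tlr4f/f-lysM-cre. In bulk RNA of this kind, fewer cells of a type and less RNA per cell cannot be told apart.

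**Figure D1:**
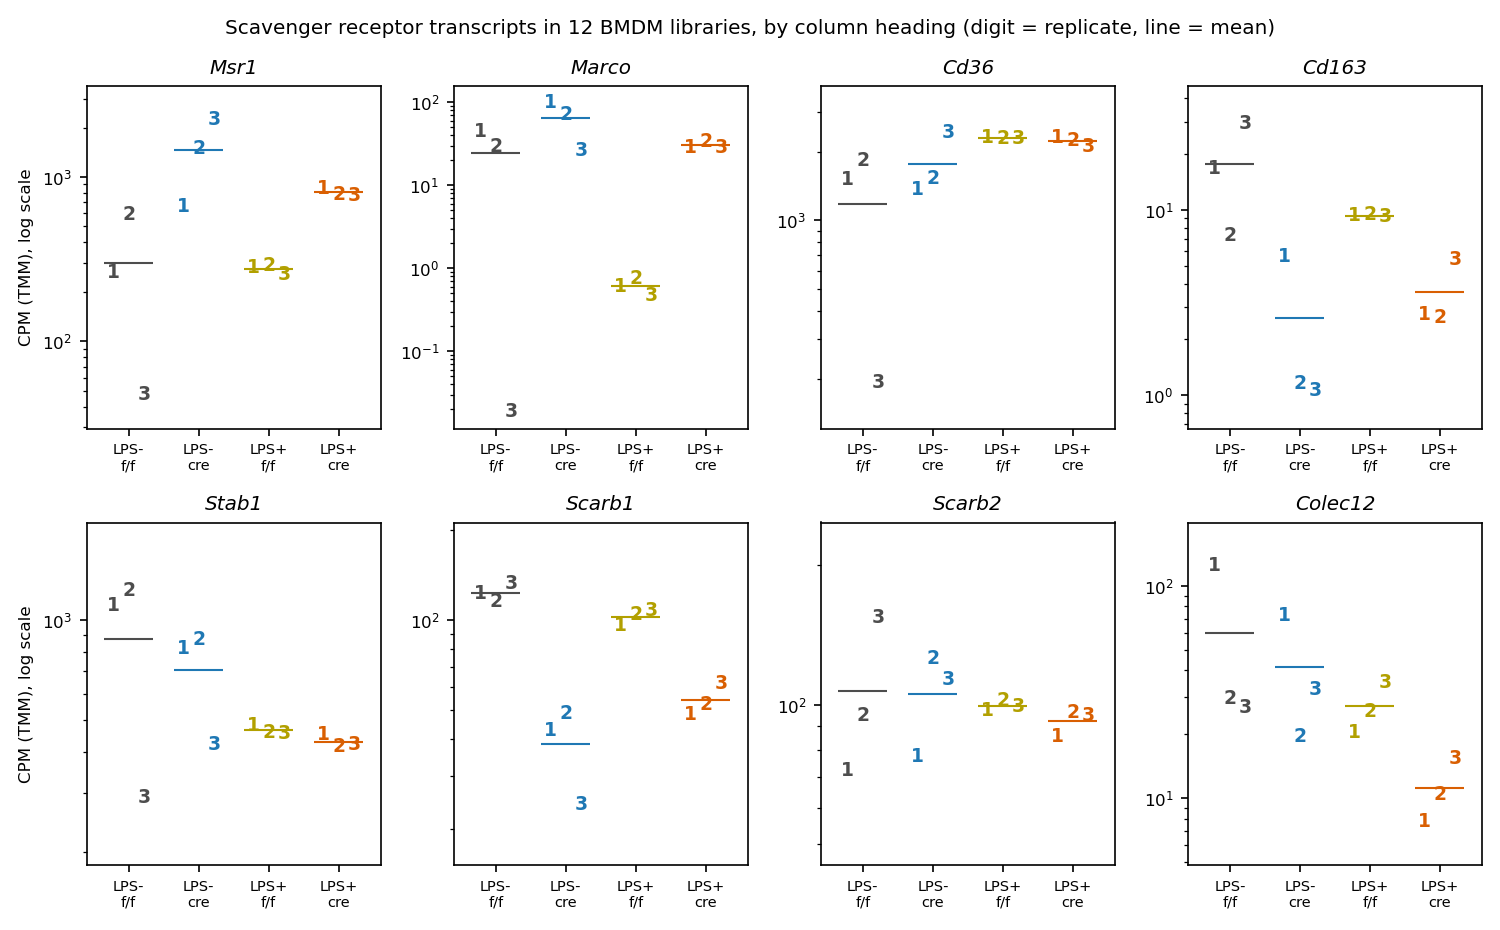
Level of each receptor in the 12 libraries, in CPM on a log axis, with a digit for each replicate and a line at the group mean, by column heading (f/f, tlr4f/f; cre, tlr4f/f-lysM-cre). Compared with LPS+ tlr4f/f, the LPS+ tlr4f/f-lysM-cre libraries stood higher for Msr1 and Marco and lower for Cd163 and Scarb1, and replicate 3 of LPS- tlr4f/f was the lowest of all for Msr1, Marco, Cd36 and Stab1.

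Levels of different receptors were compared per kilobase of the transcript row used. Cd36 was the highest of the 8 in every group, at 334 ± 247 CPM per kilobase (SD, n = 3) in the group headed LPS- tlr4f/f, 503 ± 165 in LPS- tlr4f/f-lysM-cre, 653 ± 4.55 in LPS+ tlr4f/f and 630 ± 27.2 in LPS+ tlr4f/f-lysM-cre. In the groups headed LPS+, the levels of Msr1 and Stab1 followed without overlap between neighbours, at 75.4 ± 4.89 and 58.1 ± 1.77 CPM per kilobase in LPS+ tlr4f/f and at 221 ± 12.2 and 53.7 ± 2.51 in LPS+ tlr4f/f-lysM-cre. Scarb1 and Scarb2 came next, and their levels overlapped in LPS+ tlr4f/f-lysM-cre but not in LPS+ tlr4f/f. Marco was the lowest of the 8 in LPS+ tlr4f/f, at 0.307 ± 0.0703 CPM per kilobase, and in the other 3 groups Cd163 had the lowest mean. In LPS- tlr4f/f Cd163 overlapped Marco, at 1.62 to 6.49 CPM per kilobase against 0.00944 to 22.2. In the groups headed LPS-, most neighbours in the order overlapped: the 3 highest in LPS- tlr4f/f, namely Cd36, Stab1 and Msr1, could not be ranked beyond their spread, and neither could Cd36 and Msr1 in LPS- tlr4f/f-lysM-cre.

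Of the 4 comparisons between groups, LPS+ tlr4f/f-lysM-cre against LPS+ tlr4f/f gave the most receptors past the criteria. As headed, this comparison asks what loss of myeloid tlr4 does under LPS. With the headings exchanged it is the LPS response of tlr4f/f-lysM-cre BMDMs. Msr1 and Marco rose and Cd163 fell in it. A differentially expressed gene (DEG) had to change by more than 2 times at an adjusted p under 0.01, and 3 of 8 receptors passed, beside 21.8% of all 14551 genes tested (10.8% higher, 10.9% lower). By DESeq2, by limma voom and by edgeR on sums over transcript rows there were 4, with Colec12 as the fourth. Of all genes, DESeq2 called 1612 higher and 1587 lower, voom 1580 and 1627, and edgeR on the sums 1575 and 1520 of 15488. The levels of 7 of 8 receptors did not overlap between these groups, 2 of them higher and 5 lower, beside 67.5% of all genes. At an adjusted p under 0.05 and any fold, 5 of 8 passed beside 61.4% of all genes. When all 12 libraries were fitted together, so that the wide spread of the groups headed LPS- entered the test, none of the 3 passed (edgeR adjusted p = 0.114 for Msr1, 0.0129 for Marco and 0.141 for Cd163), 0 of 8 beside 13.0% of all 15792 genes.

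In LPS- tlr4f/f-lysM-cre against LPS- tlr4f/f, the genotypes without LPS as headed and the LPS response of tlr4f/f BMDMs after the exchange, Scarb1 fell. It was the only DEG by edgeR among the 8 receptors, beside 17.1% of all 14649 genes tested (9.26% higher, 7.81% lower). DESeq2 also called Msr1, higher, and Cd163, lower, 3 of 8 in all, beside 2101 genes higher and 1896 lower of the same 14649. The levels of 3 of 8 receptors did not overlap, Msr1 higher and Cd163 and Scarb1 lower, beside 54.1% of all genes. At an adjusted p under 0.05 and any fold, 2 of 8 passed, Scarb1 and Cd163, beside 37.3% of all genes. Without replicate 3 of LPS- tlr4f/f, 0 of 8 were DEGs by edgeR, beside 11.1% of all genes.

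In the other 2 comparisons no receptor passed in edgeR's test. In LPS+ tlr4f/f against LPS- tlr4f/f, the LPS response of tlr4f/f as headed and the genotypes without LPS when exchanged, 0 of 8 were DEGs by edgeR, DESeq2 or voom, and Marco and Scarb1 had an unadjusted p below 0.05. Of all 14712 genes tested, edgeR called 0% in this comparison, with 3626 genes at an unadjusted p below 0.05, while DESeq2 called 241 higher and 226 lower and voom called 10 higher and 16 lower. Cd36 was higher and Scarb1 lower without overlap, 2 of 8 beside 35.3% of all genes. Without replicate 3 of LPS- tlr4f/f, Marco and Stab1 fell, 2 of 8 beside 1.19% of all 15240 genes tested. In LPS+ tlr4f/f-lysM-cre against LPS- tlr4f/f-lysM-cre, the LPS response of tlr4f/f-lysM-cre as headed and the genotypes with LPS when exchanged, 0 of 8 were DEGs by edgeR beside 6.09% of all 14245 genes. Colec12, Marco and Stab1 had an unadjusted p below 0.05 there, 3 of 8 beside 5746 of all 14245 genes. DESeq2 called Colec12, beside 788 genes higher and 1218 lower, and voom called 0, beside 306 higher and 671 lower. Colec12 was the only receptor without overlap, lower, beside 48.0% of all genes, and the only 1 of 8 at an adjusted p under 0.05, beside 26.7% of all genes.

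The interaction of genotype and LPS is the same contrast under both readings. It passed in 0 of 8 receptors by edgeR, DESeq2 and voom, beside 0.994% of all 15792 genes, of which 93 were higher and 64 lower by edgeR and 64 higher and 80 lower with RLE in place of TMM factors. Marco, with a log2 difference of 4.23 ± 1.75 (SE, edgeR adjusted p = 0.175), and Scarb1 had an unadjusted p below 0.05, 2 of 8 beside 3692 of all 15792 genes. The other 6 receptors lay between -0.74 and 1.38. Without replicate 3 of LPS- tlr4f/f, Marco passed, with a log2 difference of 4.84 ± 0.62 (SE, edgeR adjusted p = 0.00426), 1 of 8 beside 1.14% of all genes. The 4 comparisons share libraries, so their values are given side by side for each gene and are not independent.

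**Figure D2:**
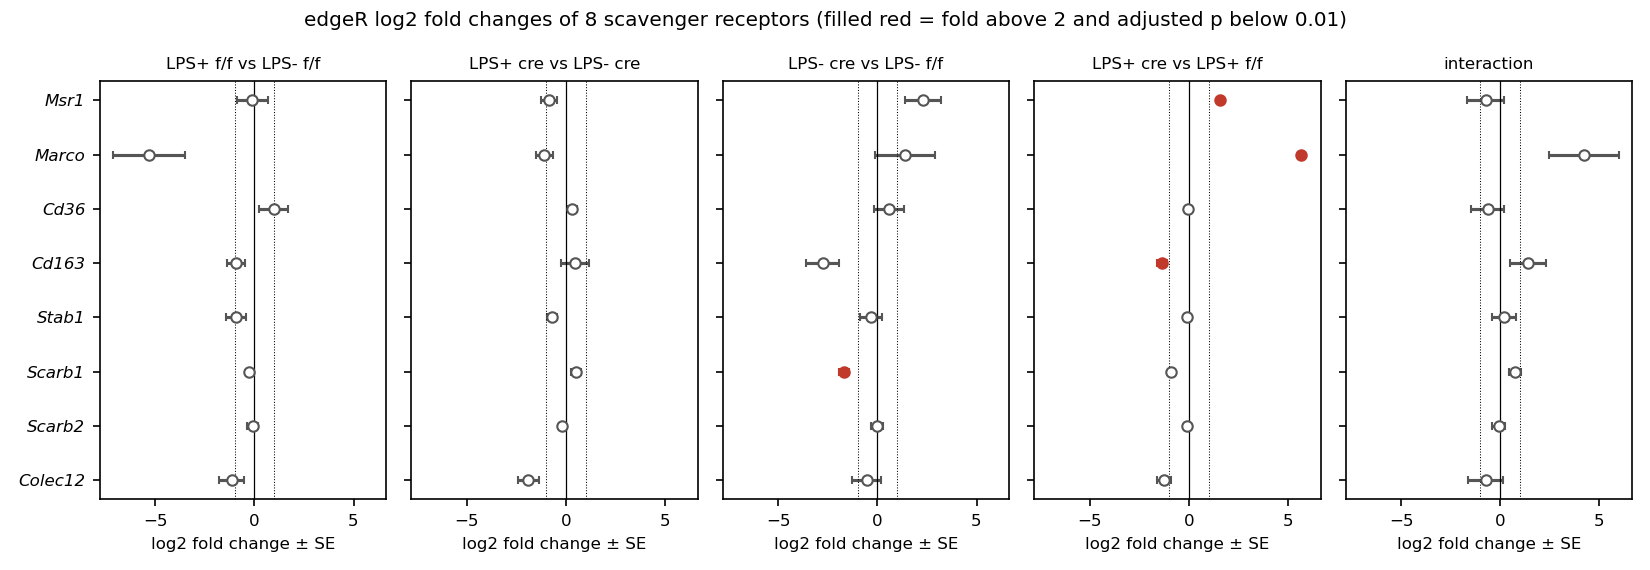
edgeR log2 fold changes of the 8 receptors (horizontal axis, bars for 1 SE) in the 4 comparisons between column headings and in the interaction, with dotted lines at a fold of 2 and filled red points for DEGs. The red points are Msr1, Marco and Cd163 in LPS+ tlr4f/f-lysM-cre against LPS+ tlr4f/f and Scarb1 in LPS- tlr4f/f-lysM-cre against LPS- tlr4f/f.

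Msr1 (chr8:39581685-39642673, minus strand, mm10) encodes the class A macrophage scavenger receptor SR-A, which takes up acetylated and oxidised LDL. It stood at 282, 288 and 255 CPM in the group headed LPS+ tlr4f/f and at 856, 784 and 775 CPM in LPS+ tlr4f/f-lysM-cre, with no overlap. The log2 fold change was 1.56 ± 0.06 (SE), a fold of 2.95 (edgeR adjusted p = 5.43e-10). The groups headed LPS- were far more spread, at 261, 587 and 47.0 CPM in LPS- tlr4f/f and at 662, 1489 and 2238 CPM in LPS- tlr4f/f-lysM-cre. All 3 libraries of the latter were above all 3 of the former, and the log2 fold change between them was 2.28 ± 0.91 (adjusted p = 0.0927), or 1.77 ± 0.63 without replicate 3 of LPS- tlr4f/f (adjusted p = 0.0881). The log2 fold change of LPS+ tlr4f/f against LPS- tlr4f/f was -0.11 ± 0.77 (adjusted p = 0.944), and that of LPS+ tlr4f/f-lysM-cre against LPS- tlr4f/f-lysM-cre was -0.85 ± 0.40 (adjusted p = 0.162). Neither pair was separated, and the first turned positive, at 0.85, without replicate 2 of LPS- tlr4f/f. The transcript rows of Msr1 did not keep 1 ratio. Counts on the row used, of 3643 bases, were 1.66 to 1.77 times those on the longest row, of 4692 bases, in LPS+ tlr4f/f, and 2.03 to 2.12 times in LPS+ tlr4f/f-lysM-cre. The ratio was 1.85 to 2.09 in LPS- tlr4f/f-lysM-cre and 1.95, 1.83 and 0.930 in LPS- tlr4f/f, the last in replicate 3. Summed over its 4 rows, Msr1 had a log2 fold change of 1.45 between the groups headed LPS+ (adjusted p = 3.82e-07).

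Marco (chr1:120474538-120505024, minus strand, mm10) encodes a class A receptor that binds bacteria and inhaled particles and is held at low levels in most resting macrophages. The RefSeq sequence of the 250 bases before its start is printed because Marco had the largest fold change of the 8 in a comparison where it was a DEG. It lies at chr1:120505025-120505274 on the minus strand of GRCm38.p6, is written 5′ to 3′, and has the ETS core of PU.1, GAGGAA, in capitals.
Marco: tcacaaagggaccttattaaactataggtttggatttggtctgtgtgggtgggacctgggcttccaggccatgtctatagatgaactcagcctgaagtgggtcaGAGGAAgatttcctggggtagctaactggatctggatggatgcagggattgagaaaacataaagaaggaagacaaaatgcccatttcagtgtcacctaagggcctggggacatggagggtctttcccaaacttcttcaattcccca
The motif lay 141 to 146 bases before the start, and was found on either strand in 23.3% of 32851 such windows. The AP-1 element TGANTCA and the E-box CACGTG, present in 6.75% and 6.02% of windows, were not matched here.

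Marco stood at 0.610, 0.748 and 0.468 CPM, 27 to 29 counts, in the group headed LPS+ tlr4f/f and at 28.8, 33.7 and 28.3 CPM, 1229 to 1280 counts, in LPS+ tlr4f/f-lysM-cre. The groups were wide apart, with a log2 fold change of 5.67 ± 0.15 (SE), a fold of 51.0 (edgeR adjusted p = 1.15e-11). Levels in the group headed LPS- tlr4f/f were 44.1 and 29.2 CPM in replicates 1 and 2 and 0.0187 CPM, a single count, in replicate 3. That library was below every other and the remaining pair was above all of LPS+ tlr4f/f. The log2 fold change of LPS+ tlr4f/f against LPS- tlr4f/f was -5.33 ± 1.81 (adjusted p = 0.145), and without replicate 3 it was -5.92 ± 0.27 (adjusted p = 0.00152), which passed. In LPS- tlr4f/f-lysM-cre the levels were 98.5, 70.7 and 26.4 CPM. This group overlapped LPS- tlr4f/f, with a log2 fold change of 1.40 ± 1.52 (adjusted p = 0.501), and LPS+ tlr4f/f-lysM-cre, with -1.09 ± 0.42 (adjusted p = 0.103). The latter became -1.48 ± 0.17 without replicate 3 of LPS- tlr4f/f-lysM-cre (adjusted p = 0.00351), past the criteria.

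**Figure D3:**
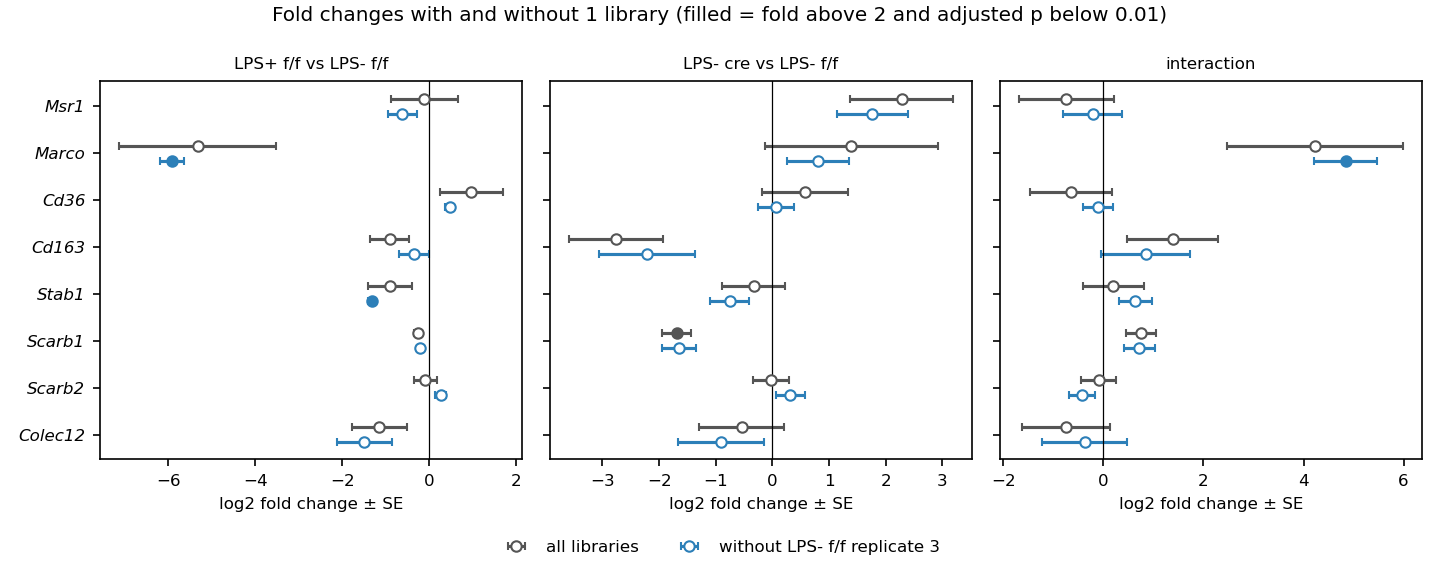
edgeR log2 fold changes (horizontal axis, bars for 1 SE) of the 8 receptors with all libraries (grey) and without replicate 3 of the group headed LPS- tlr4f/f (blue), for the comparisons that contain it, with DEGs filled. Without it Marco and Stab1 passed in LPS+ tlr4f/f against LPS- tlr4f/f and Marco in the interaction, and Scarb1 no longer passed in LPS- tlr4f/f-lysM-cre against LPS- tlr4f/f.

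Colec12 (chr18:9707595-9882644, plus strand, mm10) encodes the collectin SR-CL1, a class A receptor best known from endothelium. Its levels were 20.5, 25.5 and 35.2 CPM in the group headed LPS+ tlr4f/f and 7.74, 10.4 and 15.4 CPM in LPS+ tlr4f/f-lysM-cre. The groups did not overlap, and the log2 fold change of -1.26 ± 0.34 (SE) missed the criteria in edgeR on the transcript row used (adjusted p = 0.0259). It met them in edgeR on the sum over transcript rows, at -1.27 ± 0.28 (adjusted p = 0.00611), in DESeq2 (adjusted p = 0.00156) and in voom (adjusted p = 0.000672). In LPS- tlr4f/f-lysM-cre it was at 72.7, 19.5 and 32.6 CPM, above every library of LPS+ tlr4f/f-lysM-cre, with a log2 fold change of the latter against the former of -1.89 ± 0.51 (edgeR adjusted p = 0.0371, DESeq2 adjusted p = 0.00044). In LPS- tlr4f/f it was at 124, 29.6 and 26.8 CPM. Replicate 1 was the high library in both groups headed LPS-. Against LPS- tlr4f/f, the log2 fold change was -0.54 ± 0.75 for LPS- tlr4f/f-lysM-cre (adjusted p = 0.597) and -1.14 ± 0.64 for LPS+ tlr4f/f (adjusted p = 0.32), and without replicate 1 of LPS- tlr4f/f these became 0.56 and -0.04. Stromal markers varied across the same libraries. None of the 7 was at 0 throughout, though Thy1 had at most 7 counts in any library. The summed level of the 7 ranged from 9.50 to 665 CPM in LPS- tlr4f/f, from 185 to 1471 CPM in LPS- tlr4f/f-lysM-cre, from 20.7 to 25.3 CPM in LPS+ tlr4f/f and from 44.7 to 56.7 CPM in LPS+ tlr4f/f-lysM-cre. Col1a1, the type I collagen chain, was at 345, 29.1 and 2.31 CPM in LPS- tlr4f/f and at 466, 59.5 and 608 CPM in LPS- tlr4f/f-lysM-cre. The part of these cells in the Colec12 values was not tested.

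Cd36 (chr5:17781690-17888801, minus strand, mm10) encodes the class B receptor that takes up oxidised LDL and long-chain fatty acids. Its levels in the groups headed LPS+ were nearly level, at 2331, 2305 and 2302 CPM in LPS+ tlr4f/f and at 2318, 2245 and 2127 CPM in LPS+ tlr4f/f-lysM-cre. The log2 fold change between them was -0.04 ± 0.05 (SE, edgeR adjusted p = 0.514), with overlapping groups. The levels were 1514, 1847 and 193 CPM in LPS- tlr4f/f and 1369, 1525 and 2449 CPM in LPS- tlr4f/f-lysM-cre. Every library of LPS+ tlr4f/f was above every library of LPS- tlr4f/f, with a log2 fold change of 0.97 ± 0.73 (adjusted p = 0.453), or 0.47 ± 0.11 without replicate 3 (adjusted p = 0.0429). The other log2 fold changes were 0.58 ± 0.76 for LPS- tlr4f/f-lysM-cre against LPS- tlr4f/f (adjusted p = 0.575) and 0.33 ± 0.24 for LPS+ tlr4f/f-lysM-cre against LPS- tlr4f/f-lysM-cre (adjusted p = 0.347). Without replicate 3 of LPS- tlr4f/f, the former was 0.06 ± 0.32 (edgeR adjusted p = 0.901). Adipocytes also express Cd36, and the 5 adipocyte markers summed to at most 0.168 CPM in any library, with Lep at 0 in all. Endothelial cells express it too, and the levels of their markers are given with Stab1. The part of other cells in the Cd36 values was not tested.

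Scarb1 (chr5:125277087-125341094, minus strand, mm10) encodes SR-B1, the HDL receptor through which cholesterol esters enter and free cholesterol leaves the cell. Its levels were 123, 115 and 133 CPM in the group headed LPS- tlr4f/f and 42.8, 48.9 and 24.3 CPM in LPS- tlr4f/f-lysM-cre. The groups were well separated, and Scarb1 was the receptor of the 8 with the tightest LPS- tlr4f/f group, at a coefficient of variation of 7.07%. The log2 fold change was -1.69 ± 0.26 (SE), a fold of 0.309 (edgeR adjusted p = 0.00397). This call was lost in 5 of 6 fits that left out 1 library, with adjusted p between 0.0104 and 0.0181 (0.0134 without replicate 3 of LPS- tlr4f/f), and held without replicate 3 of LPS- tlr4f/f-lysM-cre (adjusted p = 0.0045). In the groups headed LPS+, Scarb1 was at 95.9, 105 and 108 CPM in LPS+ tlr4f/f and at 48.5, 52.5 and 61.4 CPM in LPS+ tlr4f/f-lysM-cre. Again the groups did not overlap, and the log2 fold change of -0.92 ± 0.09 had an adjusted p of 4.82e-06 at a fold change below 2. The other 2 comparisons gave -0.25 ± 0.09 for LPS+ tlr4f/f against LPS- tlr4f/f (adjusted p = 0.162) and 0.50 ± 0.25 for LPS+ tlr4f/f-lysM-cre against LPS- tlr4f/f-lysM-cre (adjusted p = 0.177). The interaction was 0.75 ± 0.29 (adjusted p = 0.149).

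Scarb2 (chr5:92441314-92506833, minus strand, mm10) encodes LIMP-2, the lysosomal member of the CD36 family, which carries β-glucocerebrosidase to the lysosome. It was nearly level in the groups headed LPS+, at 97.1, 102 and 99.1 CPM in LPS+ tlr4f/f and 85.6, 96.2 and 94.6 CPM in LPS+ tlr4f/f-lysM-cre. The second group lay just below the first, with a log2 fold change of -0.10 ± 0.06 (SE, edgeR adjusted p = 0.147). In LPS- tlr4f/f it was at 72.2, 94.8 and 155 CPM and in LPS- tlr4f/f-lysM-cre at 77.5, 126 and 114 CPM, which overlapped. The log2 fold changes of the 3 comparisons with these groups lay between -0.18 and -0.03, with adjusted p of 0.494 or more, and 2 of them turned positive without replicate 3 of LPS- tlr4f/f, at 0.27 for LPS+ tlr4f/f against LPS- tlr4f/f and 0.32 for LPS- tlr4f/f-lysM-cre against LPS- tlr4f/f.

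Cd163 (chr6:124304656-124330527, plus strand, mm10) encodes the receptor for haemoglobin-haptoglobin complexes, a marker of alternatively activated macrophages. The 250 bases before its start are printed because it was a DEG in the direction opposite to Marco. They lie at chr6:124304401-124304650 on the plus strand of GRCm38.p6 in RefSeq, and none of the 3 motifs searched for in the Marco window was matched, so the sequence has no capitals.
Cd163: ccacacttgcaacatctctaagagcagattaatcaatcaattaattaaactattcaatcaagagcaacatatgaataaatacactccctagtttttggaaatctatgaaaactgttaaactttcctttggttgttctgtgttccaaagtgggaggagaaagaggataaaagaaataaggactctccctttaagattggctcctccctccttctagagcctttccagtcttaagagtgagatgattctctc
RefSeq windows were found for 5 of the 8 receptors, and none was found for Msr1, Scarb1 or Colec12.

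Cd163 stood at 9.30, 9.44 and 9.23 CPM in the group headed LPS+ tlr4f/f and at 2.74, 2.63 and 5.42 CPM in LPS+ tlr4f/f-lysM-cre, 96 to 245 counts. It fell without overlap, with a log2 fold change of -1.35 ± 0.26 (SE), a fold of 0.392 (edgeR adjusted p = 0.00198). In LPS- tlr4f/f it was at 16.8, 7.30 and 29.2 CPM and in LPS- tlr4f/f-lysM-cre at 5.64, 1.15 and 1.06 CPM, the latter 34 to 210 counts. These groups did not overlap either, and the log2 fold change of -2.76 ± 0.83 missed the criteria in edgeR (adjusted p = 0.0422, or 0.104 without replicate 3 of LPS- tlr4f/f) and met them in DESeq2 (adjusted p = 0.00116). The log2 fold changes of the other 2 comparisons were -0.91 ± 0.46 for LPS+ tlr4f/f against LPS- tlr4f/f (adjusted p = 0.275) and 0.46 ± 0.71 for LPS+ tlr4f/f-lysM-cre against LPS- tlr4f/f-lysM-cre (adjusted p = 0.661), both with overlap. Without replicate 3 of LPS- tlr4f/f, the former was -0.36 ± 0.35 (edgeR adjusted p = 0.520).

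Stab1 (chr14:31139013-31168641, minus strand, mm10) encodes stabilin-1, which clears acetylated LDL and SPARC and is found on sinusoidal endothelium as well as on macrophages. The groups headed LPS+ were close, at 481, 458 and 454 CPM in LPS+ tlr4f/f and 452, 415 and 421 CPM in LPS+ tlr4f/f-lysM-cre, with a log2 fold change of -0.10 ± 0.05 (SE, edgeR adjusted p = 0.115). The levels were 1109, 1231 and 292 CPM in LPS- tlr4f/f and 821, 874 and 422 CPM in LPS- tlr4f/f-lysM-cre. In each of these groups replicate 3 was the low library. With all libraries, the log2 fold change of LPS+ tlr4f/f against LPS- tlr4f/f was -0.91 ± 0.50 (adjusted p = 0.317), and without replicate 3 of LPS- tlr4f/f it was -1.32 ± 0.08 (adjusted p = 0.00245). That of LPS+ tlr4f/f-lysM-cre against LPS- tlr4f/f-lysM-cre was -0.70 ± 0.26 (adjusted p = 0.091), and without replicate 3 of LPS- tlr4f/f-lysM-cre it was -0.98 ± 0.09 (adjusted p = 0.00206), at a fold change below 2. The groups headed LPS- overlapped, with a log2 fold change of -0.33 ± 0.56 (adjusted p = 0.669). Endothelial markers, 7 in number with none at 0 throughout, summed to between 4.19 and 16.2 CPM in LPS- tlr4f/f, 40.5 and 121 CPM in LPS- tlr4f/f-lysM-cre, 6.26 and 9.05 CPM in LPS+ tlr4f/f, and 10.3 and 16.7 CPM in LPS+ tlr4f/f-lysM-cre. Kdr alone was at 47.0, 115 and 32.1 CPM in LPS- tlr4f/f-lysM-cre, while Lyve1 had at most 7 counts in any library. The part of endothelial cells in the Stab1, Scarb1, Cd36 and Colec12 values was not tested.

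Of the other scavenger receptors, 15 in number, Olr1 had the largest fold changes among the DEGs. Among 12 tested in LPS+ tlr4f/f-lysM-cre against LPS+ tlr4f/f, 4 rose and 1 fell, beside 10.8% and 10.9% of all genes, with a median log2 fold change of 0.19 beside -0.02 over all genes. Olr1, the lectin-like oxidised LDL receptor LOX-1, rose from 0.358, 0.180 and 0.729 CPM to 71.1, 85.5 and 98.1 CPM, with a log2 fold change of 7.55 (edgeR adjusted p = 4.15e-06). Cxcl16, a chemokine that on the cell surface binds oxidised LDL, rose by 2.88 on the log2 scale (adjusted p = 0.000783), and Scarf2 fell by 2.08 (adjusted p = 0.000846) at levels of at most 1.19 CPM. In LPS- tlr4f/f-lysM-cre against LPS- tlr4f/f, 2 of 12 rose and 0 fell, beside 9.26% and 7.81% of all genes, with a median of 1.32 beside -0.08. These were Olr1, by 7.39 (adjusted p = 0.00166), against a group with 0 to 10 counts in a library, and Cxcl16, by 1.71 (adjusted p = 0.0066). There, 6 of the 12 had an unadjusted p below 0.05, beside 7011 of all 14649 genes. DESeq2 called 5, beside 2101 genes higher and 1896 lower, and voom 3, beside 1512 higher and 1219 lower. In LPS+ tlr4f/f-lysM-cre against LPS- tlr4f/f-lysM-cre, Olr1 rose by 2.46 (adjusted p = 0.00113) and Ssc5d, a soluble SRCR protein, fell by 2.30 (adjusted p = 0.0033), 2 of 13 beside 6.09% of all genes. There, 7 of the 13 had an unadjusted p below 0.05, beside 5746 of all 14245 genes. DESeq2 called 5, beside 788 genes higher and 1218 lower, and voom 3, beside 306 higher and 671 lower. In LPS+ tlr4f/f against LPS- tlr4f/f, 0 of 12 passed in edgeR, with 4 at an unadjusted p below 0.05, beside 3626 of all 14712 genes. DESeq2 called 2, beside 241 genes higher and 226 lower, and voom 0, beside 10 higher and 16 lower. In the interaction 0 of 14 passed by edgeR, DESeq2 or voom, with 2 at an unadjusted p below 0.05, beside 3692 of all 15792 genes.

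**Figure D4:**
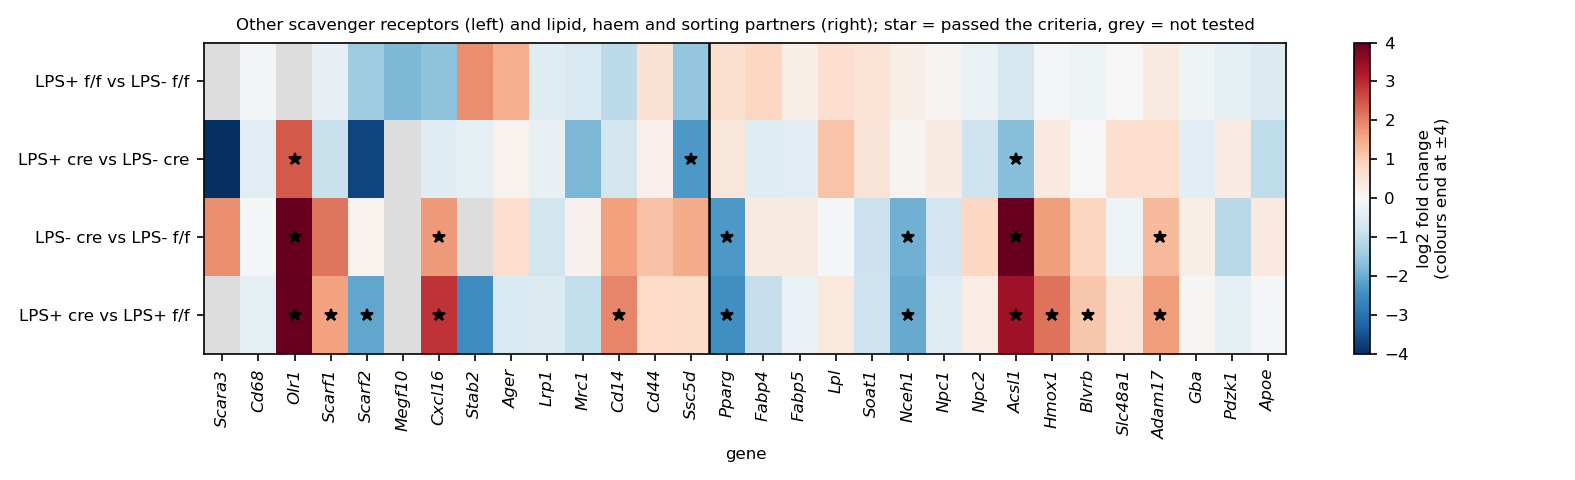
edgeR log2 fold changes (colour, ending at ±4) of the other scavenger receptors and of the lipid, haem and sorting partners in the 4 comparisons, with stars for DEGs and grey for genes that were not tested. Olr1 and Acsl1 rose and Pparg and Nceh1 fell in both comparisons of tlr4f/f-lysM-cre with tlr4f/f by column heading.

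Genes that act with the receptors on lipid, haem or lysosomal sorting, 18 in number, split in direction. Plin2 of this list is not analysed here and 16 were tested in each comparison. In LPS+ tlr4f/f-lysM-cre against LPS+ tlr4f/f, 4 of 16 rose and 2 fell, beside 10.8% and 10.9% of all genes, with a median log2 fold change of -0.01 beside -0.02 over all genes. Acsl1, which activates long-chain fatty acids, rose from 38.96 ± 2.03 to 407 ± 37.4 CPM (SD, n = 3 each), by 3.39 on the log2 scale (edgeR adjusted p = 5.89e-12). Hmox1, which degrades haem taken up through CD163 among other routes, rose from 423 ± 1.55 to 1880.05 ± 83.8 CPM, by 2.16 (adjusted p = 1.03e-11). Pparg, a nuclear receptor that drives Cd36 transcription in macrophages, fell from 60.8 ± 5.13 to 10.9 ± 1.64 CPM, with a log2 fold change of -2.47 (adjusted p = 4.43e-09). Cd36 had a log2 fold change of -0.04 in the same comparison, and a link between these values was not tested. Nceh1, a hydrolase of cholesterol esters, fell from 411 ± 11.1 to 101 ± 2.90 CPM, with -2.02 (adjusted p = 1.18e-11). In LPS- tlr4f/f-lysM-cre against LPS- tlr4f/f, 2 of 16 rose and 2 fell, beside 9.26% and 7.81% of all genes, with a median of 0.31 beside -0.08. Acsl1 rose by 4.40 (adjusted p = 0.000544) and Adam17, a sheddase of CD163, by 1.31 (adjusted p = 0.00548), while Pparg had a log2 fold change of -2.30 (adjusted p = 0.00273) and Nceh1 of -1.91 (adjusted p = 0.00597). In LPS+ tlr4f/f-lysM-cre against LPS- tlr4f/f-lysM-cre, Acsl1 fell by 1.70 (adjusted p = 0.0035) and 0 of 16 rose, beside DEGs among 6.09% of all genes. There, 8 of the 16 had an unadjusted p below 0.05, beside 5746 of all 14245 genes. DESeq2 called 2, beside 788 genes higher and 1218 lower, and voom 1, beside 306 higher and 671 lower. In LPS+ tlr4f/f against LPS- tlr4f/f, 0 of 16 passed by edgeR, DESeq2 or voom, with 3 at an unadjusted p below 0.05, beside 3626 of all 14712 genes. In the interaction 0 passed by edgeR or voom, with 1 at an unadjusted p below 0.05, beside 3692 of all 15792 genes. DESeq2 called Acsl1, beside 358 genes higher and 299 lower.

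The genes whose pattern was most like each receptor were taken by Pearson's r of log2 CPM over the 12 libraries, among 10466 genes with at least 10 counts in every library. The libraries fall into 4 groups that differ for many genes, so r is a description and was not tested. Scarb1 was nearest to Fam132a (r = 0.986) and Nav1 (r = 0.985), and Cd36 to Clec4a2 (r = 0.978) and Rps27l (r = 0.970). Cd163 was nearest to Egln1 (r = 0.969) and Avpi1 (r = 0.964), Msr1 to Actr3 (r = 0.969) and Ttc1 (r = 0.965), and Marco to Slc7a8 (r = 0.964) and Map7d1 (r = 0.959). The values were lower for Stab1, with Lypla2 (r = 0.937) and Por (r = 0.925), for Scarb2, with Chchd10 (r = 0.922), and for Colec12, with Drosha (r = 0.914) and Tnk2 (r = 0.906). Among the 28 pairs of the 8 receptors, r ran from -0.932 for Msr1 with Cd163 to 0.880 for Cd163 with Scarb1.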

How the data were processed

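Libraries of BMDMs were read as paired ends. The paper names polyA RNA sequencing, and the labels name both rRNA removal and polyA RNA-seq. Per the labels, the authors trimmed reads with Trimmomatic 0.36 after FastQC, used HISAT2 for alignment to mm10 and HTSeq for counting. The deposited values are raw counts per transcript row, and transcripts of a gene share reads, so the row with the highest total was taken for each gene. Groups follow the column headings. The 8 receptors, the gene lists and the markers were chosen from general knowledge with earlier results of these data known. In R 4.3.3, edgeR 4.0.16 (filterByExpr, TMM, robust quasi-likelihood fit and test) was applied to the 6 libraries of each comparison and to all 12 for the interaction, with Benjamini-Hochberg adjustment over the genes tested. The SE is the log2 fold change over the root of F. DEGs follow the study's thresholds, which were used there with DESeq. The script was tested on simulated data. Alternatives were DESeq2 1.42.0 (Wald), limma 3.58.1 (voom with sample quality weights), RLE factors, other count filters, a sum over transcripts, all libraries fitted together, a block for replicate number, other thresholds and each library left out. Gene positions are from GENCODE M21 (mm10). All 8 receptors, the check genes, for each list the 2 largest DEGs per direction and comparison, and the 2 genes most like each receptor are named. For Scarb2, 1 of these genes is not reported here. Counts of reads are not independent molecules. Authors' fold changes were not used.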

Additional observations from a re-analysis of the deposited data

Results flagged for a closer look

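Lyz2 differed between the column groups: its interaction of genotype and LPS had a log2 value of 3.18 (edgeR adjusted p = 0.0120), which the test of the difference itself placed below 0.05 and not below 0.01. Its log2 fold change was -10.09 for LPS+ tlr4f/f against LPS- tlr4f/f (adjusted p = 0.0224) and -6.92 for LPS+ tlr4f/f-lysM-cre against LPS- tlr4f/f-lysM-cre (adjusted p = 0.000254). It was lower in 3 of 3 libraries in each. As headed these are LPS responses. With the headings exchanged they are the genotype differences, at the gene into which Cre is inserted, without LPS and with LPS. None of the 8 receptors was singled out in this way. Groups of 3 libraries are too small for a test of single outlying samples.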

How the results depend on the processing

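Of the log2 fold changes of single receptors under the alternatives, 632 kept their direction and their side of the criteria, 20 came to pass, 9 no longer passed and 16 changed sign. The number of DEGs among the 8 receptors was 0 for LPS+ tlr4f/f against LPS- tlr4f/f, 1 when headings were exchanged and 0 to 2 when a library was left out. For LPS+ tlr4f/f-lysM-cre against LPS- tlr4f/f-lysM-cre it was 0, 1 with DESeq2, 1 at an adjusted p below 0.05 with or without a fold threshold, 3 with headings exchanged and 0 to 1 without a library. For LPS- tlr4f/f-lysM-cre against LPS- tlr4f/f it was 1, 3 with DESeq2, 2 in the single fit, 0 with the replicate block, 2 at an adjusted p below 0.05 with or without a fold threshold, 0 with headings exchanged and 0 to 1 without a library. For LPS+ tlr4f/f-lysM-cre against LPS+ tlr4f/f it was 3, 0 in the single fit, 4 with the replicate block and with the sum over transcript rows, where Colec12 also passed (log2 fold change -1.28 ± 0.08, adjusted p = 1.42e-10 with the block), 5 at an adjusted p below 0.05 without a fold threshold, 0 with headings exchanged and 3 to 4 without a library. For the interaction it was 0, and 0 to 1 without a library. Signs changed, with the range over left-out libraries, for Msr1 (-0.61 to 0.85, 0.47 with the replicate block) and Scarb2 (-0.30 to 0.27, 0.15 with voom) in LPS+ tlr4f/f against LPS- tlr4f/f. In LPS- tlr4f/f-lysM-cre against LPS- tlr4f/f they did for Colec12 (-1.19 to 0.56) and Scarb2 (-0.25 to 0.32, 0.054 with DESeq2 and with RLE factors, 0.15 with voom, 0.0016 with at least 10 counts, 0.015 with the replicate block). In the interaction they did for Stab1 (-0.12 to 0.64) and Scarb2 (-0.43 to 0.14). The causes were not tested. With at least 10 counts in every library, Marco could not be tested where LPS- tlr4f/f took part. Whether replicate numbers pair the samples was not settled, and the main fits did not pair them. Deviations of 18 same-numbered pairs correlated at -0.037 to 0.47, 5 of them above 0.1, and 9 of 12 libraries correlated best with their own number.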
